A study of Homo sapiens with 15 samples.

Results

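NDRG1, ANKRD37, ANKZF1, AK4, STC1, STC2 and ANG are 7 genes that many cell types switch on when oxygen or nutrients run short, and they were followed here in lung fibroblasts and small cell lung cancer (SCLC) cells cultured alone or facing each other. The genes were picked by name, as genes with large changes in the co-culture of MRC5 fibroblasts with H196 tumor cells, and the size of that change in fibroblast and tumor cell was part of the choice. They are 7 of 16382 genes in the MRC5 table and 7 of 16076 genes in the H196 table. All 7 passed the filter on low counts in both tables, where 12819 and 12806 genes were tested. Values from MRC5_coH196 against MRC5_Mo and from H196_Co against H196_Mo are therefore given as descriptions without a test, and only MRC5_coH69 against MRC5_Mo was tested for these genes.

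MRC5 is a line of human lung fibroblasts, H69 is a neuroendocrine (NE) SCLC line and H196 is a non-neuroendocrine (non-NE) SCLC line. The fibroblasts were kept in mono-culture (MRC5_Mo) or sequenced after sharing medium, across a porous transwell insert, with H69 (MRC5_coH69) or with H196 (MRC5_coH196), and H196 cells were kept alone (H196_Mo) or with MRC5 (H196_Co). Each of the 5 groups had 3 mRNA libraries, 15 in all, and no drug, gene edit or altered oxygen is named for any of them. H69 cells themselves were not analysed here, each cell type is represented by 1 line, and no source says that the 3 libraries of a group came from separate cultures, so p-values measure the spread between these libraries only.

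In cells with enough oxygen the prolyl hydroxylases (EGLN1, EGLN2 and EGLN3) mark the alpha subunits of the hypoxia-inducible factors (HIFs) for destruction through VHL. When oxygen falls, the alpha subunits HIF1A or EPAS1 accumulate, pair with ARNT and bind short hypoxia response elements near their target genes. Transcripts of such targets are widely read as reporters of this state, although several of them also answer to nutrient stress, endoplasmic reticulum stress and growth signals. Among the 7 genes, NDRG1 is a cytoplasmic stress protein, ANKRD37 a small ankyrin repeat protein, ANKZF1 a factor that releases stalled peptides from ribosomes, AK4 a mitochondrial nucleotide kinase, STC1 and STC2 secreted glycoprotein hormones, and ANG (angiogenin) a secreted ribonuclease.

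The core letters of a hypoxia response element were looked for before the annotated starts of these genes, because the genes are grouped by their response to hypoxia. RefSeq promoter windows on GRCh38.p14 were at hand for 4 of the 7 genes, ANKRD37, AK4, STC2 and ANG, in 9 windows. The 250 bases before each start were searched on both strands for ACGTG and GCGTG, which read CACGT and CACGC on the other strand. All 4 genes had a match in at least 1 window, and 6 of the 9 windows had one. The first window of ANG had none, so by first windows alone not all 4 genes had a match. A match was present in 43.2% of all 35116 windows, and among the first windows of 11156 tested genes in 56.9%, so matches are common. The stretches below are the 30 bases of ANKRD37 and of AK4 with the most matches, 5′ to 3′ on the gene's strand, shown because both hold the palindrome CACGTG, with the matched letters in capitals.
ANKRD37: gggctcCACGTGccagtgtttgtgtACGTG
AK4: ggtcgcagggagCACGTGggccaggcaggc
The ANKRD37 stretch (chr4:185396673-185396702, plus strand) started 168 bases before the annotated start and held 3 matches, of which the palindrome CACGTG counts on both strands. The AK4 stretch (chr1:65147447-65147476, plus strand) started 105 bases before an alternative start of AK4, inside the span that the deposited annotation gives the gene, and held the same palindrome. In the GENCODE v29 annotation of GRCh38, the AK4 stretch overlapped no transcript, and that of ANKRD37 overlapped a UTR exon of 1 transcript of the gene itself. A match of letters does not show that a factor binds there.

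The libraries held between 18476890 and 19170560 reads assigned to genes in MRC5 and between 16073597 and 17358349 in H196. Fibroblast identity was checked with COL1A1, COL1A2, COL3A1, PDGFRB, DCN, LUM, THY1 and FAP, of which all 8 were above 1 CPM (reads scaled to library depth) in every MRC5 library. Their summed level was 26708 to 29720 CPM in MRC5_Mo, 30574 to 31614 CPM in MRC5_coH69 and 12604 to 13346 CPM in MRC5_coH196, and the part of this fall in the other changes was not tested. In H196 the same 8 genes summed to between 2.05 and 3.09 CPM. The NE markers NEUROD1, INSM1 and CHGA were at 0 in all MRC5 libraries, and the 7 NE markers listed summed to 24.9 to 27.7 CPM in the H196 libraries, with INSM1 at 0. In bulk libraries, fewer cells of a type and less RNA per cell cannot be told apart.

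A low signal of transcripts typical of H196 was present in MRC5_coH196. As a measure of it, 95 genes were summed that reached 20 CPM or more in all H196 libraries but stayed below 0.5 CPM in all MRC5_Mo libraries. The sum was 8.97 to 9.92 CPM in MRC5_Mo and 8.36 to 10.4 CPM in MRC5_coH69, against 53.5, 61.8 and 23.7 CPM in MRC5_coH196 replicates 1, 2 and 3. These are 0.296% to 0.792% of the level in H196_Co. Carry-over from H196 cells and a rise of these genes in the fibroblasts cannot be told apart here. The shares take the whole sum as carry-over. At the upper share, the transcripts of H196_Co would amount to 5.46% of the smallest rise of AK4 between a MRC5_Mo and a MRC5_coH196 library, 2.71% for ANKZF1, and less for the other 5 genes. All 7 genes had their highest FPKM in replicate 3 of MRC5_coH196, the library with the lowest sum. The lead was small for AK4 (8.84 against 8.82 in replicate 2) and STC2 (286.32 against 283.60 in replicate 1). Whether these levels are related to the sum was not tested.

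NDRG1 (gene ID 10397, chromosome 8, 133237171 to 133297304 in GRCh38.p13) encodes a cytoplasmic protein induced by hypoxia, metals and differentiation signals, and known in several tumor types for a link to metastasis. Its level, in FPKM (fragments scaled for transcript length and library depth), was 963.50, 841.32 and 993.93 in the 3 MRC5_coH196 libraries and 35.12, 33.72 and 34.79 in MRC5_Mo. The groups lay far apart, and NDRG1 reached the 99.3rd percentile of tested genes in MRC5_coH196. In log2 terms it was 4.93 ± 0.063 (SE) higher, or 30.5-fold, rank 25 of 12819 genes by size. In tumor cells NDRG1 was low throughout, at 5.92, 6.08 and 5.10 FPKM in H196_Co against 1.93, 1.69 and 1.87 FPKM in H196_Mo, a difference of 1.72 ± 0.12 (3.29-fold).

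ANKRD37 (gene ID 353322, chromosome 4, 185396841 to 185400243) encodes a small ankyrin repeat protein best known as a direct HIF target. It was close to silent in MRC5_Mo, with 1.16, 1.64 and 1.71 FPKM, which rest on 11 to 16 reads per library. In MRC5_coH196 it stood at 44.30, 41.71 and 45.98 FPKM, and the 387 to 442 reads per library make this level far more precise than its starting point. The log2 difference was 5.02 ± 0.16 (32.5-fold), rank 23 of 12819. In the tumor cells ANKRD37 measured 94.77, 56.59 and 58.45 FPKM in H196_Co against 7.95, 6.42 and 9.17 FPKM in H196_Mo. Replicate 1 of H196_Co stood above the other two libraries, so that the coefficient of variation was 30.8%. The log2 difference of 3.23 ± 0.18 (9.37-fold) was the third largest among 12806 genes in H196, and it ranged from 2.94 to 3.36 when each library was left out in turn.

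ANKZF1 (gene ID 55139, chromosome 2, 219229783 to 219236679) acts in ribosome-associated quality control, where it cuts the stalled peptide from its tRNA. Its level was 20.51, 20.21 and 22.87 FPKM in MRC5_coH196 and 5.72, 6.55 and 5.60 FPKM in MRC5_Mo, a log2 difference of 2.01 ± 0.072 (4.03-fold). H196 cells started higher, at 26.17, 26.43 and 27.97 FPKM in H196_Mo, and reached 47.17, 43.21 and 42.30 FPKM in H196_Co, a difference of 0.79 ± 0.075 (1.73-fold). All H196_Mo libraries thus lay above all MRC5_coH196 libraries on this scale, although the tables were normalized separately.

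AK4 (gene ID 205, chromosome 1, 65146169 to 65232145) is an adenylate kinase of the mitochondrial matrix that helps to balance adenine and guanine nucleotides. It was at 8.62, 8.82 and 8.84 FPKM in MRC5_coH196 and at 1.77, 1.59 and 1.45 FPKM in MRC5_Mo, a log2 difference of 2.62 ± 0.068 (6.16-fold). In H196 cells it was already abundant in mono-culture and moved least of the 7 genes, from 40.13, 38.59 and 38.19 FPKM in H196_Mo to 45.15, 47.57 and 44.06 FPKM in H196_Co. That difference was 0.30 ± 0.065 (1.23-fold), rank 1601 of 12806 genes. AK4 has processed pseudogenes in the genome, and its deposited counts were whole in all 15 libraries.

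STC1 and STC2 encode stanniocalcins, secreted glycoproteins that act locally on calcium and phosphate handling and that block the protease PAPPA, which frees insulin-like growth factors from their binding proteins. STC1 (gene ID 6781, chromosome 8, 23841929 to 23854806) measured 54.16, 53.97 and 60.31 FPKM in MRC5_coH196 and 9.97, 10.81 and 11.01 FPKM in MRC5_Mo, a log2 difference of 2.58 ± 0.055 (5.98-fold). In the tumor cells it went from 49.62, 46.27 and 44.77 FPKM in H196_Mo to 66.72, 71.74 and 61.40 FPKM in H196_Co, a difference of 0.58 ± 0.071 (1.5-fold). The fibroblasts thus came close to the level of the tumor cells, from a much lower start.

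STC2 (gene ID 8614, chromosome 5, 173314723 to 173335124) is the more abundant stanniocalcin of the fibroblasts, and is known as a target of ATF4 as well as of HIF. It measured 283.60, 280.65 and 286.32 FPKM in MRC5_coH196 and 105.46, 102.69 and 101.77 FPKM in MRC5_Mo, a log2 difference of 1.63 ± 0.042 (3.1-fold). In tumor cells it was lower, at 5.02, 4.67 and 5.0 FPKM in H196_Mo and 16.73, 14.45 and 15.39 FPKM in H196_Co, a difference of 1.74 ± 0.085 (3.34-fold). STC2 was thus the only member of the 7 whose change was no larger in the fibroblast than in the tumor cell.

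ANG (gene ID 283, chromosome 14, 20684177 to 20706941) encodes angiogenin, a secreted ribonuclease that promotes vessel growth and cleaves tRNAs in stressed cells. Its level was 9.39, 9.61 and 10.51 FPKM in MRC5_coH196 against 2.78, 3.33 and 2.39 FPKM in MRC5_Mo. By mean FPKM these are the 56th and 25th percentiles of tested genes. The log2 difference was 1.92 ± 0.14 (3.78-fold). H196_Co held 12.43, 12.10 and 11.57 FPKM and H196_Mo 5.90, 7.91 and 8.27 FPKM, a difference of 0.81 ± 0.13 (1.75-fold). ANG and RNASE4 share 5′ exons, and their deposited counts were whole in 0 of 15 libraries where those of the other 6 genes were whole in all 15, so reads were divided between overlapping transcripts and both levels are uncertain.

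**Figure D1:**
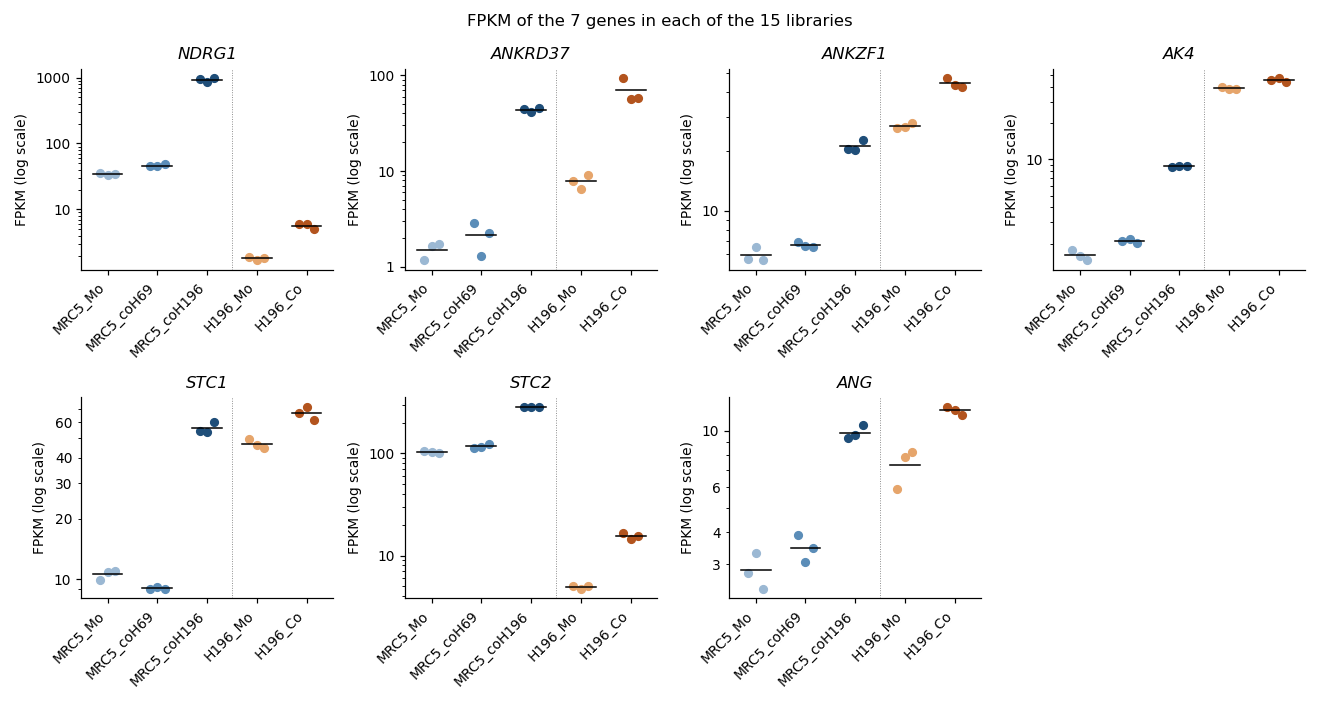
Level of each of the 7 genes in every library, with FPKM on a log scale on the y axis and the 5 groups on the x axis. Points are single libraries (n = 3 per group), bars are group means, and the dotted line divides the separately normalized MRC5 and H196 tables. All MRC5_coH196 points stand above all MRC5_Mo points, with NDRG1 between 841.32 and 993.93 FPKM against 33.72 to 35.12 FPKM.

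The lowest MRC5_coH196 library exceeded the highest MRC5_Mo library for all 7 genes, as it did for 37.7% of the genes tested, and the lowest H196_Co library exceeded the highest H196_Mo library for all 7, as it did for 20.2% of genes. Over all genes, 17.2% were upregulated and 14.7% downregulated differentially expressed genes (DEGs) in MRC5_coH196 against MRC5_Mo, and 3.26% and 0.601% in H196_Co against H196_Mo, where DEG means that the p adjusted over all genes was under 0.05 and the change exceeded 0.58 on the log2 scale. Since the genes were chosen on these contrasts, nothing is read from their count. The smallest of the 7 changes in MRC5_coH196 was that of STC2, rank 377 of 12819, and in H196_Co that of AK4. The choice was by name, so no threshold divides the 7 genes from others.

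Whether the NE line H69 moved the same genes was asked with MRC5_coH69 against MRC5_Mo, which shares the MRC5_Mo libraries with the contrast the genes were chosen on. NDRG1, AK4 and STC2 were higher and STC1 was lower in MRC5_coH69 by edgeR's quasi-likelihood test, all by small amounts, and ANKRD37, ANKZF1 and ANG did not pass. None of the 7 reached the fold limit of a DEG, at an unadjusted p under 0.05 either, and DESeq2 gave 0 DEGs among them as well. Among all genes 0.421% (54) were upregulated and 0.133% (17) downregulated DEGs in this comparison. Without the fold limit, 3.78% of genes (484) were higher and 2.93% (375) lower at an adjusted p under 0.05, against 3 and 1 of the 7. At an unadjusted p under 0.05, 5 of the 7 passed, 4 of them higher, beside 20.1% of all genes.

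NDRG1 measured 45.18, 45.24 and 48.59 FPKM in MRC5_coH69, all above the MRC5_Mo libraries. The log2 fold change was 0.44 ± 0.059 (1.35-fold, adjusted p = 2.38e-05 by edgeR). AK4 measured 2.1, 2.19 and 2.01 FPKM, again above all 3 controls, by 0.41 ± 0.083 in log2 terms (adjusted p = 0.00271 by edgeR). STC2 measured 112.82, 115.61 and 123.83 FPKM, above the controls by 0.20 ± 0.042 (adjusted p = 0.00354 by edgeR). These are small steps beside 4.93, 2.62 and 1.63 in MRC5_coH196.

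STC1 went the other way, with 8.92, 9.17 and 8.93 FPKM in MRC5_coH69, below all 3 MRC5_Mo libraries. Its log2 fold change was −0.22 ± 0.064 (0.858-fold, adjusted p = 0.0357 by edgeR). This call was lost without MRC5_Mo replicate 2 (adjusted p = 0.137) or replicate 3 (0.17), without MRC5_coH69 replicate 1 (0.112), 2 (0.069) or 3 (0.113), and with limma on log2(FPKM + 0.1) (0.051) or log2(FPKM + 1) (0.058), while its sign held.

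ANKRD37 was at 2.89, 1.29 and 2.26 FPKM in MRC5_coH69, which rest on 27, 12 and 21 reads and overlapped the controls. The log2 fold change of 0.49 ± 0.29 had an adjusted p of 0.382 by edgeR, and it ranged from 0.22 to 0.74 when each library was left out in turn. ANKZF1 (6.98, 6.65 and 6.52 FPKM) differed by 0.18 ± 0.085 (adjusted p = 0.221), and ANG (3.89, 3.05 and 3.48 FPKM) by 0.31 ± 0.17 (adjusted p = 0.298). ANKZF1 did not overlap MRC5_Mo by CPM, although its lowest FPKM of 6.52 lay just under the highest of MRC5_Mo, 6.55, whereas ANG overlapped on both scales. In all, 4 of the 7 genes lay above and 1 below MRC5_Mo without overlap, where 13.6% and 12.1% of all genes did.

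**Figure D2:**
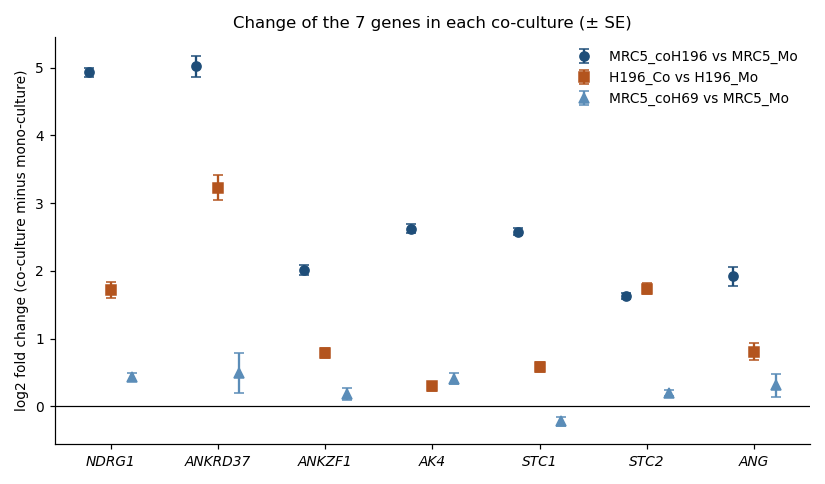
Log2 fold change of each gene in co-culture against its own mono-culture on the y axis, with the 7 genes on the x axis. Circles are MRC5_coH196, squares H196_Co and triangles MRC5_coH69, with standard errors from the edgeR fit as bars. The MRC5_coH69 values lie between −0.22 and 0.49, and those of MRC5_coH196 between 1.63 and 5.02.

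The median log2 fold change of the 7 genes was 2.58 in MRC5_coH196 and 0.31 in MRC5_coH69, where the medians of all genes were close to 0. Placed directly against MRC5_coH69, MRC5_coH196 was higher by 4.54 for ANKRD37, 4.5 for NDRG1, 2.8 for STC1, 2.21 for AK4, 1.83 for ANKZF1, 1.6 for ANG and 1.43 for STC2. In H196_Co the median was 0.81.

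Fibroblast and tumor cell were compared by subtracting the log2 change in H196_Co from that in MRC5_coH196, as a description. NDRG1 differed most, by 3.21 ± 0.13, followed by AK4 with 2.32 ± 0.094, STC1 with 2.0 ± 0.09, ANKRD37 with 1.79 ± 0.24, ANKZF1 with 1.22 ± 0.1 and ANG with 1.11 ± 0.19. The value for STC2 was −0.11 ± 0.094, about 1 standard error from 0. As neighbours in this order, STC1 and ANKRD37 differed by less than the larger of their standard errors, as did ANKZF1 and ANG. The median of the 7 was 1.79, and that of 11743 genes tested in both tables was −0.01.

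The starting levels of the cell types differed in both directions. In mono-culture AK4 was 24.3-fold higher in H196 than in MRC5, ANKRD37 5.22-fold, ANKZF1 4.51-fold, STC1 4.42-fold and ANG 2.6-fold, while NDRG1 and STC2 were 18.9-fold and 21.1-fold higher in MRC5. In co-culture AK4 was still 5.2-fold higher in the tumor cells, and ANKZF1 was 2.09-fold, ANKRD37 1.59-fold, ANG 1.22-fold and STC1 1.19-fold higher there. NDRG1 was by then 164-fold higher in the fibroblasts and STC2 18.3-fold. Thus the levels of 5 genes came nearer to each other, that of NDRG1 moved further apart and that of STC2 hardly shifted. These ratios join FPKM values from separate tables, were not tested, and restate the difference in fold change on another scale. Across the 7 genes the starting ratio and the difference in change showed a Pearson r of 0.165, which is given as a description over 7 points that share their libraries.

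**Figure D3:**
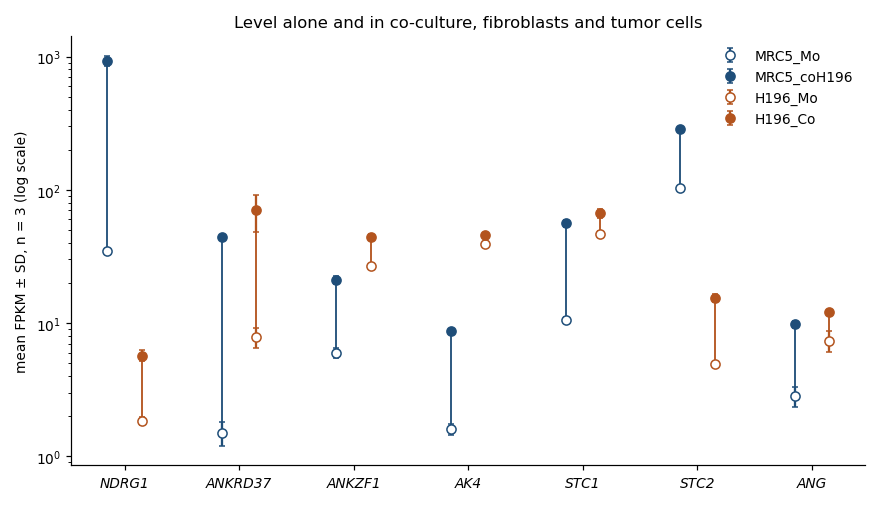
Mean FPKM on a log scale (y axis) for each gene (x axis) in mono-culture (open) and co-culture (filled), with MRC5 in blue and H196 in orange. Bars are SD over 3 libraries. AK4 starts at 1.6 FPKM in MRC5_Mo and 39.0 FPKM in H196_Mo, whereas NDRG1 ends at 933 FPKM in MRC5_coH196 and 5.7 FPKM in H196_Co.

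The MSigDB Hallmark Hypoxia set, as named in the deposited annotation, holds NDRG1, ANKZF1, AK4, STC1 and STC2 but neither ANKRD37 nor ANG. Without the members, 167 of its genes were tested in MRC5, and in MRC5_coH196 114 of them were upregulated (68.3%), 8 were downregulated and the median log2 fold change was 0.94. The most abundant were glycolytic enzymes, with GAPDH 1.13 ± 0.048, ENO1 0.94 ± 0.042, ALDOA 1.43 ± 0.044 and LDHA 1.4 ± 0.04 higher. In H196_Co 53 of 160 were upregulated (33.1%), 0 were downregulated and the median was 0.35, with GAPDH at 0.93 ± 0.084 and ALDOA at 1.23 ± 0.081. In MRC5_coH69 2 of 167 passed, LXN with 1.07 and IGFBP3 with 0.68, and the median was 0.06. Among all genes, 17.2% were upregulated and 14.7% downregulated DEGs in MRC5_coH196, and 3.26% and 0.601% in H196_Co. In MRC5_coH69 0.421% of all genes were upregulated DEGs.

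Against these other Hallmark genes, NDRG1 and ANKRD37 exceeded all 167 in MRC5_coH196, whereas 23 to 49 of them exceeded AK4, STC1, ANKZF1, ANG and STC2. NDRG1 (4.93 ± 0.063) and the highest of the 167, ANGPTL4 (4.9 ± 0.094), differed by less than either standard error. Since the 7 genes were chosen for large changes in this co-culture, nothing is read from their ranks in MRC5_coH196 or H196_Co. In H196_Co 1 of 160 exceeded ANKRD37 and 8 exceeded NDRG1 or STC2, while 40 exceeded ANG, 42 ANKZF1, 53 STC1 and 90 AK4. The 7 genes thus ran from the top of this set to its middle in tumor cells. In MRC5_coH69 5 exceeded ANKRD37 and 158 exceeded STC1.

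**Figure D4:**
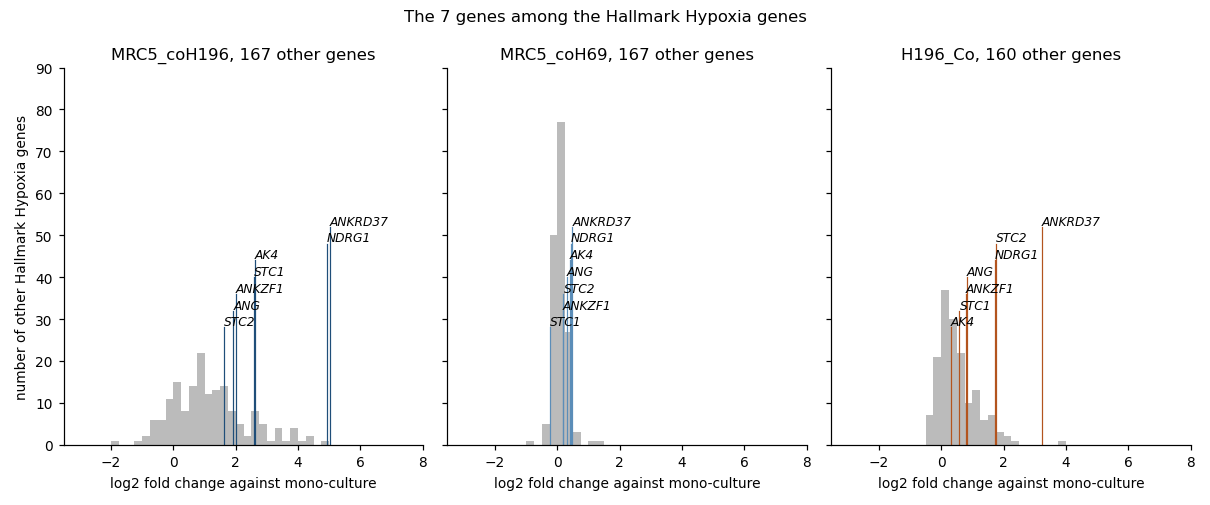
Distribution of log2 fold changes (x axis) of the other Hallmark Hypoxia genes as numbers of genes (y axis) in MRC5_coH196, MRC5_coH69 and H196_Co, each against mono-culture. Vertical lines mark the 7 genes, their heights serving only to part the labels. NDRG1 and ANKRD37 stand to the right of all 167 other genes in MRC5_coH196, and all 7 lie within the other genes in MRC5_coH69. The 7 genes were chosen for large changes in the co-culture with H196.

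A list of 20 HIF targets was read as well, most of which are also among the Hallmark Hypoxia genes counted above. EGLN3 is also among the oxygen sensors below. All 20 were upregulated DEGs in MRC5_coH196, with a median of 2.65. Among them were LOX, a collagen cross-linker (2.72 ± 0.047), and SLC2A1, a glucose transporter (2.7 ± 0.056). The mitophagy receptors BNIP3 (2.7 ± 0.049) and BNIP3L (2.25 ± 0.054) and the glycolytic enzyme PGK1 (1.8 ± 0.041) were others. In H196_Co 16 of 18 were upregulated with a median of 1.14, and LOX, barely present there at 0.353 FPKM, had −0.25 ± 0.22 (adjusted p = 0.449). In MRC5_coH69 0 of 20 were DEGs by edgeR, although 8 had an adjusted p under 0.05, all of them higher, as LOX with 0.47 ± 0.044 (adjusted p = 7.8e-08) and BNIP3 with 0.25 ± 0.05 (adjusted p = 0.00287). The median of the list in MRC5_coH69 was 0.19, beside 0.31 for the 7 genes. Over all genes, 17.2% were upregulated DEGs in MRC5_coH196 and 3.26% in H196_Co, and 3.78% were higher at any size in MRC5_coH69. This list and those below were chosen with earlier results of these data known, so their counts are descriptions only.

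Of the HIF subunits and oxygen sensors, 3 of 10 were upregulated in MRC5_coH196 and the median was 0.31. Upregulated DEGs made up 17.2% of all genes there and 3.26% in H196_Co. EGLN1 was higher by 1.66 ± 0.053, and from near silence EGLN3 by 6.07 ± 0.3 (4.17 against 0.0667 FPKM) and HIF3A by 3.81 ± 0.31 (0.747 against 0.107 FPKM). HIF1A differed by 0.39 ± 0.042 (adjusted p = 5.93e-09) and EPAS1 by 0.01 ± 0.047 (adjusted p = 0.92). In H196_Co 2 of 7 were upregulated, EGLN1 by 0.6 ± 0.075 and EPAS1 by 0.97 ± 0.26 from 0.2 FPKM, while HIF1A fell by 0.38 on the log2 scale (adjusted p = 0.000912). The EPAS1 call was lost with DESeq2 (adjusted p = 0.0539) and without H196_Co replicate 2 (0.0888), and EGLN1 fell to 0.56 or 0.57, just under the fold limit, without H196_Co replicate 1 or H196_Mo replicate 2 or 3. In MRC5_coH69 0 of 10 were DEGs by edgeR, and 2 had an adjusted p under 0.05, with EGLN1 at 0.3 ± 0.056 (adjusted p = 0.00143). HIF proteins are regulated by their stability, which mRNA does not measure. By western blot, the paper reports that the protein of HIF1A did not change in H196 cells co-cultured with MRC5. For the fibroblasts the paper gives no such measurement.

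For amino acid and endoplasmic reticulum stress, the other known input to STC2, 10 genes of the ATF4 response were read. They hold no chaperone of the endoplasmic reticulum. The chaperone HSPA5, among the downregulated Hallmark Hypoxia genes, had −0.8 ± 0.042 in MRC5_coH196 (adjusted p = 8.65e-15 by edgeR) and 0.03 in H196_Co. In MRC5_coH196 7 of the 10 were upregulated and 0 downregulated DEGs (median 0.79), beside 17.2% and 14.7% of all genes. The 7 were led by the glutathione-degrading CHAC1 (1.73 ± 0.06) and asparagine synthetase ASNS (1.47 ± 0.068). ATF4 itself was at 0.82 ± 0.047, whereas the cystine transporter SLC7A11 was −0.51 ± 0.053 (adjusted p = 5.28e-09). In H196_Co 6 of the 10 were upregulated (median 0.63), beside 3.26% of all genes. CHAC1 was at 0.96 ± 0.13, ASNS at 0.83 ± 0.071 and SLC7A11 at 0.58 ± 0.11, and ATF4 at 0.15 ± 0.072 (adjusted p = 0.14). SLC7A11 there lay between 0.53 and 0.57, under the fold limit, without H196_Co replicate 2 or 3 or H196_Mo replicate 2 or 3. In MRC5_coH69 0 of 10 were DEGs by edgeR, and SLC7A11 alone had an adjusted p under 0.05 (−0.21 ± 0.052, adjusted p = 0.0136).

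Relatives of some of the genes were read as well. In MRC5_coH196 some of them rose with their gene, whereas others did not pass or were lower. Of the NDRG family, only NDRG2 was a DEG in MRC5_coH196 besides NDRG1, at 0.617 against 0.293 FPKM (1.24 ± 0.33), and NDRG3 (0.00 ± 0.052, adjusted p = 0.961) and NDRG4 (−0.1 ± 0.058, adjusted p = 0.113) did not pass. NDRG1 therefore went from 56.6% ± 0.48 (SD, n = 3) of the family's summed FPKM in MRC5_Mo to 63.1% ± 0.78 in MRC5_coH69 and 97.6% ± 0.27 in MRC5_coH196. In H196 cells it made up 3.42% ± 0.087 alone and 10.5% ± 0.77 in co-culture, and NDRG3 stayed the main member with 40.4 FPKM.

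Among the other adenylate kinases, 2 of 6 tested were upregulated in MRC5_coH196, beside 17.2% of all genes. AK5 (0.84 ± 0.05) was 1 of these 2 kinases, and cytosolic AK1 was −0.37 ± 0.048 (adjusted p = 1.62e-07). In H196_Co 0 of 8 were DEGs by edgeR, and 1 had an adjusted p under 0.05. AK4 was 1.03% ± 0.088 of the summed adenylate kinase FPKM in MRC5_Mo, 5.14% ± 0.095 in MRC5_coH196, 18.3% ± 0.37 in H196_Mo and 19.9% ± 0.46 in H196_Co, so even in MRC5_coH196 it was a small part of the family.

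The stanniocalcins changed in balance. STC2 was 9.77-fold above STC1 in MRC5_Mo, 13-fold in MRC5_coH69 and 5.06-fold in MRC5_coH196, and their summed level was 114, 126 and 340 FPKM. In H196 cells STC1 was the main form, with a ratio of STC2 to STC1 of 0.105 alone and 0.234 in co-culture. The proteases they inhibit and the binding proteins those cleave were higher in MRC5_coH196 as well, with PAPPA at 0.87 ± 0.054, IGFBP4 at 0.65 ± 0.044 and IGFBP5 at 0.28 ± 0.049 (adjusted p = 1.18e-05, under the fold limit), and PAPPA2 at 0.147 against 0.05 FPKM. In MRC5_coH69 IGFBP5 just passed the fold limit with 0.59 ± 0.049 (adjusted p = 1.09e-08). That last call was lost with limma on FPKM and without MRC5_Mo replicate 2 or 3 or MRC5_coH69 replicate 1 or 3. In H196 only IGFBP4 could be tested (0.39 ± 0.21, adjusted p = 0.213).

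RNASE4, which shares promoters and 5′ exons with ANG, was upregulated in MRC5_coH196 by 2.58 ± 0.077 (adjusted p = 1.02e-19 by edgeR), to 22.7 from 4.27 FPKM. In H196_Co it was upregulated by 0.82 ± 0.11 (adjusted p = 1.97e-05), and in MRC5_coH69 it differed by 0.28 ± 0.098 (adjusted p = 0.0939). The log2 ratio of ANG to RNASE4 was −0.598 ± 0.16 (SD) in MRC5_Mo, −0.569 ± 0.24 in MRC5_coH69 and −1.21 ± 0.077 in MRC5_coH196, and 0.561 ± 0.34 and 0.546 ± 0.1 in H196_Mo and H196_Co. RNH1, the cytosolic inhibitor of angiogenin, had −0.13 (adjusted p = 0.0171) in MRC5_coH196, and PLXNB2, its receptor, had 0.22 (adjusted p = 7.6e-05), both under the fold limit.

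**Figure D5:**
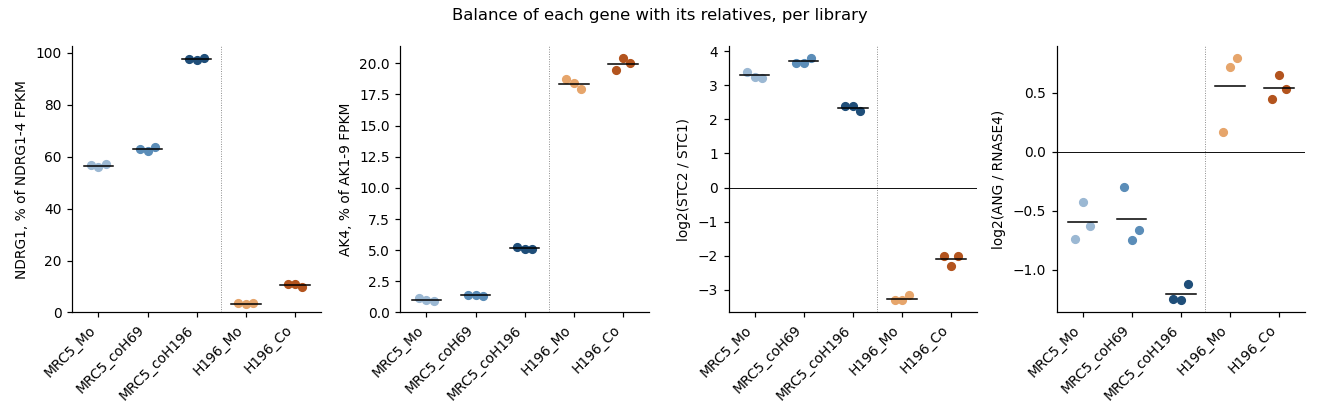
Share of NDRG1 in the summed FPKM of NDRG1 to NDRG4, share of AK4 in that of the adenylate kinases, log2 ratio of STC2 to STC1 and log2 ratio of ANG to RNASE4, on the y axes, in each library of the 5 groups on the x axes. Bars are means of 3 libraries. NDRG1 fills 97.6% of its family in MRC5_coH196, and the ratio of STC2 to STC1 is above 1 in all MRC5 libraries and below 1 in all H196 libraries.

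Of 12 other ribosome-associated quality control genes, 1 was upregulated and 3 were downregulated in MRC5_coH196, beside 17.2% and 14.7% of all genes. The median of the 12 was −0.4, where ANKZF1, chosen for its change, had 2.01. LTN1, the ubiquitin ligase of the pathway, was higher by 0.62 ± 0.055, whereas the recycling factor ABCE1 (−0.84 ± 0.05) and UFD1 (−0.79 ± 0.051) were lower and NEMF had −0.42 ± 0.065 (adjusted p = 3.03e-06). In H196_Co and in MRC5_coH69 0 of 12 were DEGs by edgeR, with 2 and 1 at an adjusted p under 0.05. The FEM1 proteins guide a ubiquitin ligase that is known to act on ANKRD37. FEM1C was upregulated (1.24 ± 0.061) and FEM1A downregulated (−0.64 ± 0.084) in MRC5_coH196, the second call being lost without MRC5_coH196 replicate 2, and FEM1B had 0.51 ± 0.056 (adjusted p = 1.15e-08).

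Genes overlapping the 7 or within 1000 bases of them were read for signal that a shared locus could lend. UFSP2, overlapping ANKRD37, differed by 0.01 ± 0.074 in MRC5_coH196 (adjusted p = 0.874), and LRP2BP by 0.39 ± 0.39 (adjusted p = 0.374). Beside ANKZF1, ATG9A was 0.48 ± 0.054 higher (adjusted p = 1.71e-08) and GLB1L differed by 0.17 ± 0.12 (adjusted p = 0.197), and beside AK4, RAVER2 was 0.53 ± 0.088 higher (adjusted p = 6.17e-06). In H196_Co ATG9A was 0.35 ± 0.071 higher (adjusted p = 0.00158). None of these neighbour changes reached the fold limit, unlike that of RNASE4, which overlaps ANG and was upregulated in both co-cultures with the values given above. Whether the counting used strand is not given in the sources used here. NDRG1, STC1 and STC2 had no such neighbour among tested genes.

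The patterns of the 7 genes over all 15 libraries, each table centred on its mono-culture mean of log2 CPM, had Pearson r from 0.632 to 0.994 over 21 pairs, with a median of 0.944. Among 8319 other genes with at least 10 CPM on average in both tables, the nearest to NDRG1 were MXI1, YEATS2 and VEGFA (0.998 each), with VEGFA at 3.84 in MRC5_coH196 and 1.12 in H196_Co. ANKRD37 was nearest to CCN2 (0.992), CLK3 (0.991) and WDR45B (0.99), and ANKZF1 to STBD1 (0.996), ENO2 and ANGPTL4 (0.995 each). AK4, with its small change in tumor cells, was nearest to TMEM200B (0.995), ERRFI1 and RAI14 (0.994 each), of which ERRFI1 had 4.45 in MRC5_coH196 and 0.33 in H196_Co. STC1 was nearest to TSC22D2 (0.997), CLK1 (0.996) and SERTAD2 (0.994), whose values in MRC5_coH69 were −0.11, −0.09 and 0.0. STC2 was nearest to SEMA4B (0.994), PPP1R3C and PLOD1 (0.989 each), which like it changed at least as much in the tumor cell, SEMA4B with 1.42 and 1.55 and PPP1R3C with 1.61 and 2.1. ANG was nearest to ANKRA2 and CD44 (0.984 each) and POFUT2 (0.979). These correlations are descriptions, since the 15 libraries fall into 5 groups and share their depth and processing. The 7 genes were also chosen for large changes in co-culture with H196, so a high r among them is built into the choice.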

How the data were processed

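The authors sequenced oligo(dT)-selected mRNA, filtered reads with SOAPnuke, mapped them to GRCh38.p13 and quantified genes. The submitters' processing notes name HISAT, HISAT2 2.1.0, Bowtie2 2.3.4.3 and RSEM 1.3.1. The deposited tables hold expected counts and FPKM per library. Log2 fold changes, p and q values of the authors' own comparisons were not used, nor were 18 (MRC5) and 12 (H196) further per-library columns of TPM and normalized values. Of the expected counts, 93.7% and 92.1% were whole. They were rounded.

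Genes were filtered with filterByExpr, scaled by TMM (factors 0.916 to 1.05 in MRC5 and 0.959 to 1.04 in H196) and tested two-sided with edgeR 4.0.16 in R 4.3.3 (quasi-likelihood, Benjamini-Hochberg over all genes), the 9 MRC5 and 6 H196 libraries each in 1 model. DEG means adjusted p under 0.05 and absolute log2 fold change above 0.58, and SE is the fold change over the root of F. FPKM was used for levels, given as mean ± SD, n = 3. limma 3.58.1, DESeq2 1.42.0, DESeq2 size factors, no filter, left-out libraries and a replicate block served as alternatives. The code was checked on simulated data.

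The 7 genes and the lists were chosen with earlier results of these data known. Genes named besides the 7 are the most abundant of each list (at most 6) with family members first, neighbours within 1000 bases, and for each gene the 3 most correlated. LXN, IGFBP3, HSPA5, EGLN3, HIF3A, LTN1, UFD1 and NEMF were named after their values were seen. Promoter windows for NDRG1, ANKZF1 and STC1 were not analysed here. Some listed genes and sequences are not reported here.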

Additional observations from a re-analysis of the deposited data

Results flagged for a closer look

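STC1 lay on opposite sides of the mono-culture in fibroblasts facing the 2 tumor lines. All 3 MRC5_coH69 libraries lay below all 3 MRC5_Mo libraries (log2 fold change −0.22), and all 3 MRC5_coH196 libraries lay above them (2.58). Both comparisons use the same MRC5_Mo libraries, and the difference between them was not tested. It was noted because of the 7 genes only STC1 had every library of one co-culture below, and every library of the other above, the mono-culture. Of all genes, 12.1% lay below MRC5_Mo without overlap in MRC5_coH69, and 37.7% lay above it in MRC5_coH196. The lower call in MRC5_coH69 was lost when most single libraries of these 2 groups were left out and with limma, as given above.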

How the results depend on the processing

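Of 1427 values recomputed under the alternatives, 0 reversed in sign, although counts of genes, a large part of them, could not reverse. Fold changes or their medians moved by more than the replicate spread in 57. A further 24 became weaker, of which 17 were counts over the lists and 7 the lost call of STC1 in MRC5_coH69. The 6 that became stronger were all counts. A count was labelled weaker or stronger when it changed by over 1.5 times or to or from 0. With no fold limit, 4 of the 7 genes differed in MRC5_coH69 where 0 were DEGs. With limma on log2(FPKM + 0.1) and log2(FPKM + 1), the 7 genes had a median change (log2) of 2.38 and 1.91 in MRC5_coH196 (2.58 by edgeR), 0.72 and 0.70 in H196_Co (0.81), 2.01 and 1.65 for MRC5_coH196 against MRC5_coH69 (2.21), and 1.69 and 1.2 for fibroblast minus tumor cell (1.79). On these scales the median of all genes in MRC5_coH196 was −0.18 and −0.13. Leaving out each library in turn gave 2.52 to 2.62, 0.76 to 0.88, 2.18 to 2.25 and 1.63 to 2.01 for these medians, 0 DEGs and 3 to 4 changes of any size among the 7 in MRC5_coH69, 113 to 116 higher and 6 to 9 lower Hallmark Hypoxia genes in MRC5_coH196, 51 to 58 higher in H196_Co, and 2 to 3 higher and 0 to 1 lower in MRC5_coH69. The cause was not tested. Among the smaller lists, limma on log2(FPKM + 1) gave 0 in place of 2 upregulated oxygen-sensing genes and 3 in place of 6 ATF4 response genes in H196_Co, and in MRC5_coH196 6 in place of 3 downregulated and 0 in place of 1 upregulated ribosome-associated quality control genes, and no call for IGFBP4 (0.48), PAPPA2 (0.13) and NDRG2 (0.32).

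Replicate numbers did not pair the libraries. Deviations of same-numbered libraries correlated between −0.116 and 0.081 in MRC5 and between −0.151 and 0.033 in H196. With the replicate block, 0 of the 7 genes were DEGs in MRC5_coH69 and 4 changed at any size, STC1 having −0.22 (adjusted p = 0.0338), and the medians were 2.58 in MRC5_coH196 and 0.82 in H196_Co. ANKRD37 had at most 27 reads in any MRC5_Mo or MRC5_coH69 library.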
